A study of Mus musculus with 6 samples.

Results

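The genes described here are 38 genes of the neutrophil, chosen by name and grouped by where and when in the cell's maturation their products are made. They comprised 5 primary granule, 7 secondary or tertiary granule, 12 mature cytosolic and 14 surface or oxidase genes. The class named mature cytosolic also holds proteins of other places, among them Retnlg, a secreted protein, and Alox5ap, a membrane protein. Non-control probes carrying those names were taken from the scanner files. All 38 were found, on 49 of the 55681 non-control probes and among 34797 gene names.

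RNA came from aortic arteries of C57BL/6 mouse fetuses at E18.5, late in gestation, and was labelled with Cy3 for 1-colour Agilent arrays. Dams were Nod1 -/- and had been mated with Nod1 +/- males. Each dam received 500 µg of FK565, a synthetic ligand of the peptidoglycan sensor NOD1, under the skin, and fetal vessels were taken 6 h later. There were 3 arrays from Nod1 +/- fetuses, which carry 1 functional allele, and 3 from Nod1 -/- littermates, which carry none. Since all dams lacked Nod1 and all received the ligand, no array shows vessels without FK565. The labels name no promoter or cell type to which the Nod1 mutation is limited, and do not say whether an array held 1 fetus or a pool. P-values therefore measure only the spread between these samples, which may be technical.

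Neutrophils are short-lived phagocytes made in the fetal liver and marrow. As a precursor matures it makes its granules in order. Primary (azurophil) granules with myeloperoxidase and serine proteases are filled in the promyelocyte, secondary (specific) granules with lactoferrin in the myelocyte, and tertiary (gelatinase) granules later. Transcripts of granule proteins are mostly shut off by the time the cell leaves for the blood, whereas calprotectin, chemoattractant receptors and the parts of the NADPH oxidase are expressed in the mature cell. C/EBP-epsilon is the transcription factor known for switching on secondary granule genes, and PU.1 and C/EBP-alpha act in the earlier steps.

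Values are log2 signal minus the array's 75th percentile, listed for replicates 1 to 3. Differences are Nod1 +/- minus Nod1 -/- on that scale, with limma's p adjusted by the Benjamini-Hochberg method over all 21478 genes tested. A value does not compare 1 gene with another, because probes differ in brightness. All 6 arrays lay on 1 slide and shared 1 scan time, with Nod1 -/- replicates 1 and 2 in slide row 1 and the other 4 arrays in row 2. Between 48.6% and 58.3% of probes were well above background per array. The Nod1 probe read 3.15, 3.20 and 3.78 in Nod1 +/- and 3.20, 3.19 and 3.35 in Nod1 -/-, with no call (0.13, adjusted p = 0.648); the deleted part of the gene is not given, so this does not check the labels. Smooth muscle actin (Acta2) read between 8.77 and 8.82 on all 6 arrays. The summed signal of 12 skeletal-muscle genes was 910 times the 75th percentile on Nod1 +/- replicate 1 against 49.2 to 71.5 on the other 5 arrays, so that array stood apart.

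Promoter sequences of Mpo, Ngp, Ltf and S100a9 are shown to set a primary granule, a pair of secondary granule and a mature cytosolic gene side by side. They are the 250 bases before the annotated start in RefSeq's GRCm38.p6 table, whose build differs from the mm9 positions of the probes. Capitals mark the letters GAGGAAG, the core of PU.1 sites, or TTGCNNAA, a shortened C/EBP consensus, on either strand.
Mpo, chr11:87793534-87793783, plus strand: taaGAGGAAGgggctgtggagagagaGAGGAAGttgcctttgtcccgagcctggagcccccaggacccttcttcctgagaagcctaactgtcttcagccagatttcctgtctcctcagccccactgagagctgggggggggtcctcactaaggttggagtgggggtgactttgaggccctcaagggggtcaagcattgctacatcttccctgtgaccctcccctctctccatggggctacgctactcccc
Ngp, chr9:110419558-110419807, plus strand: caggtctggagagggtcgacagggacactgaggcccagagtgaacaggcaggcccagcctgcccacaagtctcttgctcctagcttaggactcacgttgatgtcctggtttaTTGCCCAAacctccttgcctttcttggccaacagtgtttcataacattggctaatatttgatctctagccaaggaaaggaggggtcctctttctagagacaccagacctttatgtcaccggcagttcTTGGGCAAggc
Ltf, chr9:111019042-111019291, plus strand: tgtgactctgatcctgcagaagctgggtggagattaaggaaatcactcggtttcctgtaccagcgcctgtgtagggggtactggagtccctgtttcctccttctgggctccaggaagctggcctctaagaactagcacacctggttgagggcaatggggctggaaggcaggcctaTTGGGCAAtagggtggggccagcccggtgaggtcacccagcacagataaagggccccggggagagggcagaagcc
S100a9, chr3:90695722-90695971, minus strand: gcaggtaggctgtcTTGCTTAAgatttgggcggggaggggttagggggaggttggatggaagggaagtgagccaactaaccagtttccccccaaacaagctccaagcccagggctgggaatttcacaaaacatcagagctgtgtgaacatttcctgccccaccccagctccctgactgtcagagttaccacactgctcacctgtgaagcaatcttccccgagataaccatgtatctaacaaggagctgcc

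The Mpo stretch held 2 copies of the PU.1 letters and no C/EBP match, while Ngp held 2 C/EBP matches, and Ltf and S100a9 1 each. A RefSeq promoter (250 bases before to 50 after the start) was found for 34 of the 38 genes, 31 by symbol and 3 by accession. Alox5ap, Itgb2, Trem3 and Ncf4 had no promoter in the table. The C/EBP letters stood in 9 of the 34 promoters (26.5%) and in 10.8% of all 32851 promoters in the table. The PU.1 letters stood in 12 of 34 (35.3%) and in 13.6% of all. By class, the C/EBP letters were in 1 of 5 primary granule, 3 of 7 secondary or tertiary granule, 4 of 11 mature cytosolic and 1 of 11 surface or oxidase promoters. The PU.1 letters were in 4 of 5, 1 of 7, 3 of 11 and 4 of 11. A consensus of NF-kB was found in 1 of 34 promoters, that of Pglyrp1 (1.5% of all promoters), and the AP-1 letters TGANTCA in 4 (7.8% of all). No matches of different motifs overlapped. These are matches of letters and say nothing about binding.

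Most genes of the mature cytosolic class were higher in Nod1 +/- than in Nod1 -/- vessels, whereas none of the 3 primary granule genes bright enough to be tested was called. Across all genes tested, 7.66% were called higher and 11.0% lower in Nod1 +/- vessels. Of the 38 neutrophil genes 34 were bright enough to be tested, and 22 of these (64.7%) were called higher and 1 lower. By class the genes called higher were 0 of 3 tested primary granule genes, 3 of 6 secondary or tertiary granule genes, 10 of 12 mature cytosolic genes and 9 of 13 surface or oxidase genes. The median differences of the 4 classes were 0.29, 1.74, 3.10 and 1.24, beside -0.10 over all genes tested. The surface or oxidase median was 0.81 with normexp background correction and 2.03 without the probes that hold a long repeat, described further on. With the dim genes included the medians were 0.22, 1.62, 3.10 and 1.24. At an unadjusted limma p under 0.05 the primary granule class also had 0 genes. Of the 34 tested genes 32 were well above background on all 6 arrays. Itgb2l and Cd177 passed the filter on dim probes through the Nod1 +/- arrays, with 3 of them and, in Nod1 -/-, 0 and 1 arrays well above background. So Itgb2l, counted among the 22 genes called higher and the 9 surface or oxidase ones, had to differ. In these whole vessels, more neutrophils, more RNA per neutrophil and expression of these genes by other cells cannot be told apart. The genes were chosen with results of these data known, and the classes were not tested against each other.

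**Figure D1:**
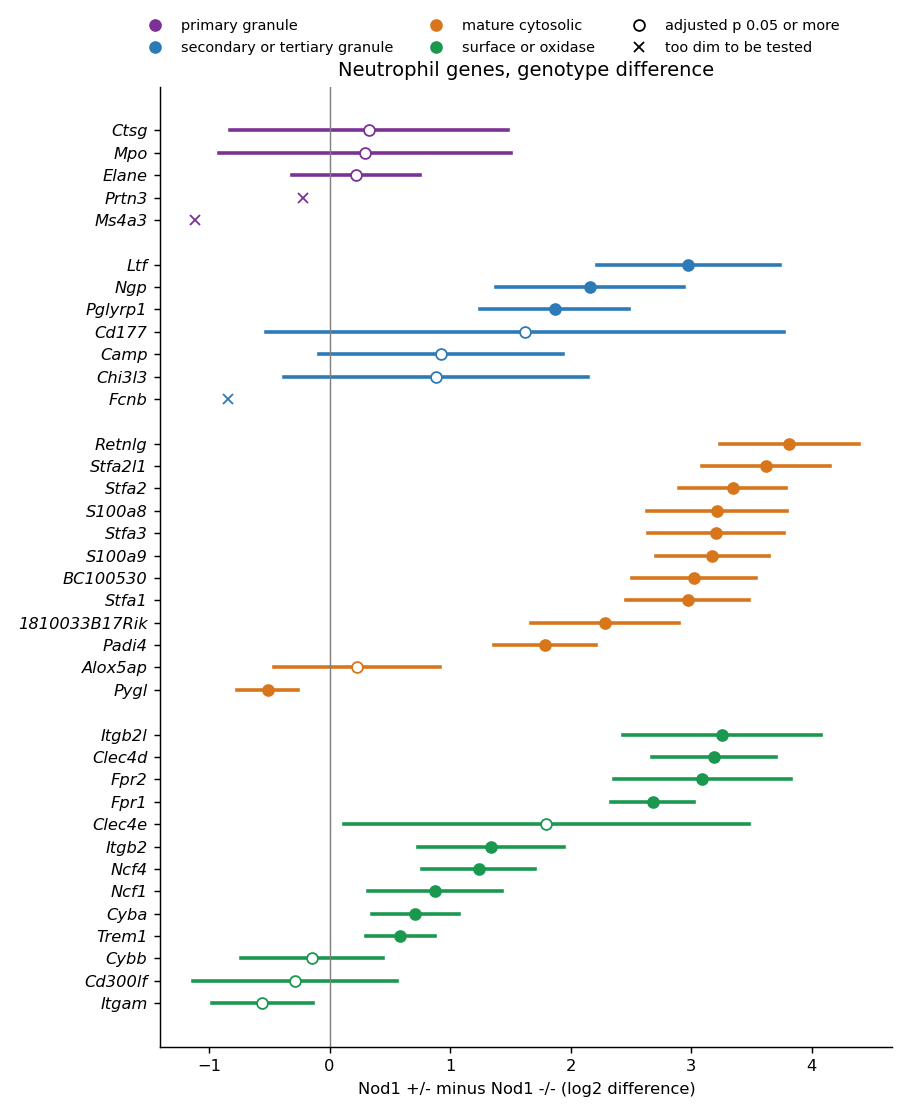
Difference between Nod1 +/- and Nod1 -/- arrays (log2, horizontal axis) for 37 neutrophil genes by class. Points are fitted differences with 95% confidence intervals, filled where adjusted p was under 0.05; crosses are genes too dim to be tested, and Trem3 is left out. The tested primary granule genes lie between 0.22 and 0.33, and 10 of 12 mature cytosolic genes between 1.79 and 3.82; the point of Itgb2l rests on Nod1 -/- signals below background.

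Primary granule genes encode the microbicidal enzymes of the first granules. Mpo (myeloperoxidase, which makes hypochlorous acid; chromosome 11, 87617840 to 87617899 of mm9) read 0.70, -1.17 and -0.79 in Nod1 +/- and -1.16, -0.46 and -0.53 in Nod1 -/-. Its difference was 0.29 (95% interval -0.92 to 1.51; adjusted p = 0.705). Nod1 +/- replicate 1 was the highest of the 6 arrays and the genotypes overlapped.

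Elane, encoding neutrophil elastase (chromosome 10, 79350902 to 79350961), read -0.03, -0.42 and -0.80 in Nod1 +/- and -0.88, -0.49 and -0.55 in Nod1 -/-, with a difference of 0.22 (95% interval -0.31 to 0.75; adjusted p = 0.499). Ctsg, the serine protease cathepsin G (chromosome 14, 56718795 to 56718854), read 0.26, -1.31 and -1.03 in Nod1 +/- and -0.51, -0.94 and -1.62 in Nod1 -/-, with a difference of 0.33 (95% interval -0.83 to 1.48; adjusted p = 0.655). For all 3 enzymes Nod1 +/- replicate 1 was the highest array. Without that array the median difference of the tested primary granule genes was -0.15, and over the 6 arrays left out in turn it ranged up to 0.63. The upper confidence limits of Mpo, Elane and Ctsg were 1.51, 0.75 and 1.48, so rises up to these sizes lie within the error of 3 arrays a group.

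A second, dimmer Mpo probe was well above background on 1 array of each genotype and was not tested. The other members of the class were too dim as well. Prtn3, encoding proteinase 3 (chromosome 10, read by a probe of 60 bases that spans 817 bases of the genome), was well above background on 1 Nod1 +/- array and on no Nod1 -/- array. It read -3.50, -5.06 and -6.22 in Nod1 +/- and -4.84, -4.58 and -4.71 in Nod1 -/-. Ms4a3, a membrane protein of granulocyte precursors (chromosome 19, 11704055 to 11704114), read -3.26, -5.20 and -4.60 in Nod1 +/- and -0.50, -4.67 and -4.53 in Nod1 -/-. Nod1 -/- replicate 1 was more than 4 log2 units above the other arrays of its genotype, and the genotypes overlapped.

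Secondary and tertiary granule genes were divided. Ltf, the iron-binding lactoferrin of specific granules (chromosome 9, 110942873 to 110942932), read 2.34, 2.59 and 1.65 in Nod1 +/- and -1.28, -0.59 and -0.49 in Nod1 -/-, and rose 7.88-fold (log2 2.98, standard error 0.31; adjusted p = 0.00318). Ngp, a cathelin-like granule protein (chromosome 9, 110324266 to 110324814, across a splice junction), read 0.34, 0.43 and -0.46 in Nod1 +/- and -2.57, -1.72 and -1.89 in Nod1 -/-, and rose 4.48-fold (log2 2.16, standard error 0.32; adjusted p = 0.00909). Pglyrp1, a granule protein that binds bacterial peptidoglycan (chromosome 7, 19475662 to 19475721), read 0.72, 1.56 and 0.69 in Nod1 +/- and -0.96, -0.70 and -0.97 in Nod1 -/-, and rose 3.65-fold (log2 1.87, standard error 0.25; adjusted p = 0.00707). Every Nod1 +/- array lay above every Nod1 -/- array for these 3 genes. Across all genes tested, 16.3% showed such separation upward. Ngp and Pglyrp1 lost their calls with the slide row as a block (adjusted p = 0.0928 and 0.061), a fit that takes the genotype difference from row 2 and so from Nod1 -/- replicate 3, and without both first replicates (0.0691 and 0.0595), with differences of 1.79 to 1.99.

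The other genes of the class were not called. Camp, the cathelicidin precursor (chromosome 9, 109749911 to 109749970), read 2.10, 1.42 and 0.91 in Nod1 +/- and -0.16, 1.12 and 0.70 in Nod1 -/-, with a difference of 0.92 (95% interval -0.09 to 1.94; adjusted p = 0.17). A second Camp probe gave 1.03 (limma's p adjusted across kept probes = 0.12). Nod1 +/- replicate 3 lay below Nod1 -/- replicate 2 on the first probe, so the genotypes overlapped.

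Chi3l3, a chitinase-like protein also made by alternatively activated macrophages (chromosome 3, 105950485 to 105950544), read 0.33, -0.43 and -0.99 in Nod1 +/- and -1.98, -1.49 and -0.26 in Nod1 -/-, with a difference of 0.88 (95% interval -0.38 to 2.15; adjusted p = 0.272). Cd177, a surface and granule-membrane protein of neutrophils (chromosome 7, 25531261 to 25535362, across at least 1 splice junction), read -3.08, -1.47 and -3.45 in Nod1 +/- and -5.39, -4.99 and -2.47 in Nod1 -/-, with a difference of 1.62 (95% interval -0.53 to 3.77; adjusted p = 0.241). In both, Nod1 -/- replicate 3 was the highest array of its genotype and reached into the Nod1 +/- range. Against that array alone, which shares a slide row with the Nod1 +/- arrays, the differences were -0.10 for Chi3l3 and -0.19 for Cd177. Fcnb, a secreted ficolin, was well above background on 0 of 6 arrays by either of its 2 probes.

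**Figure D2:**
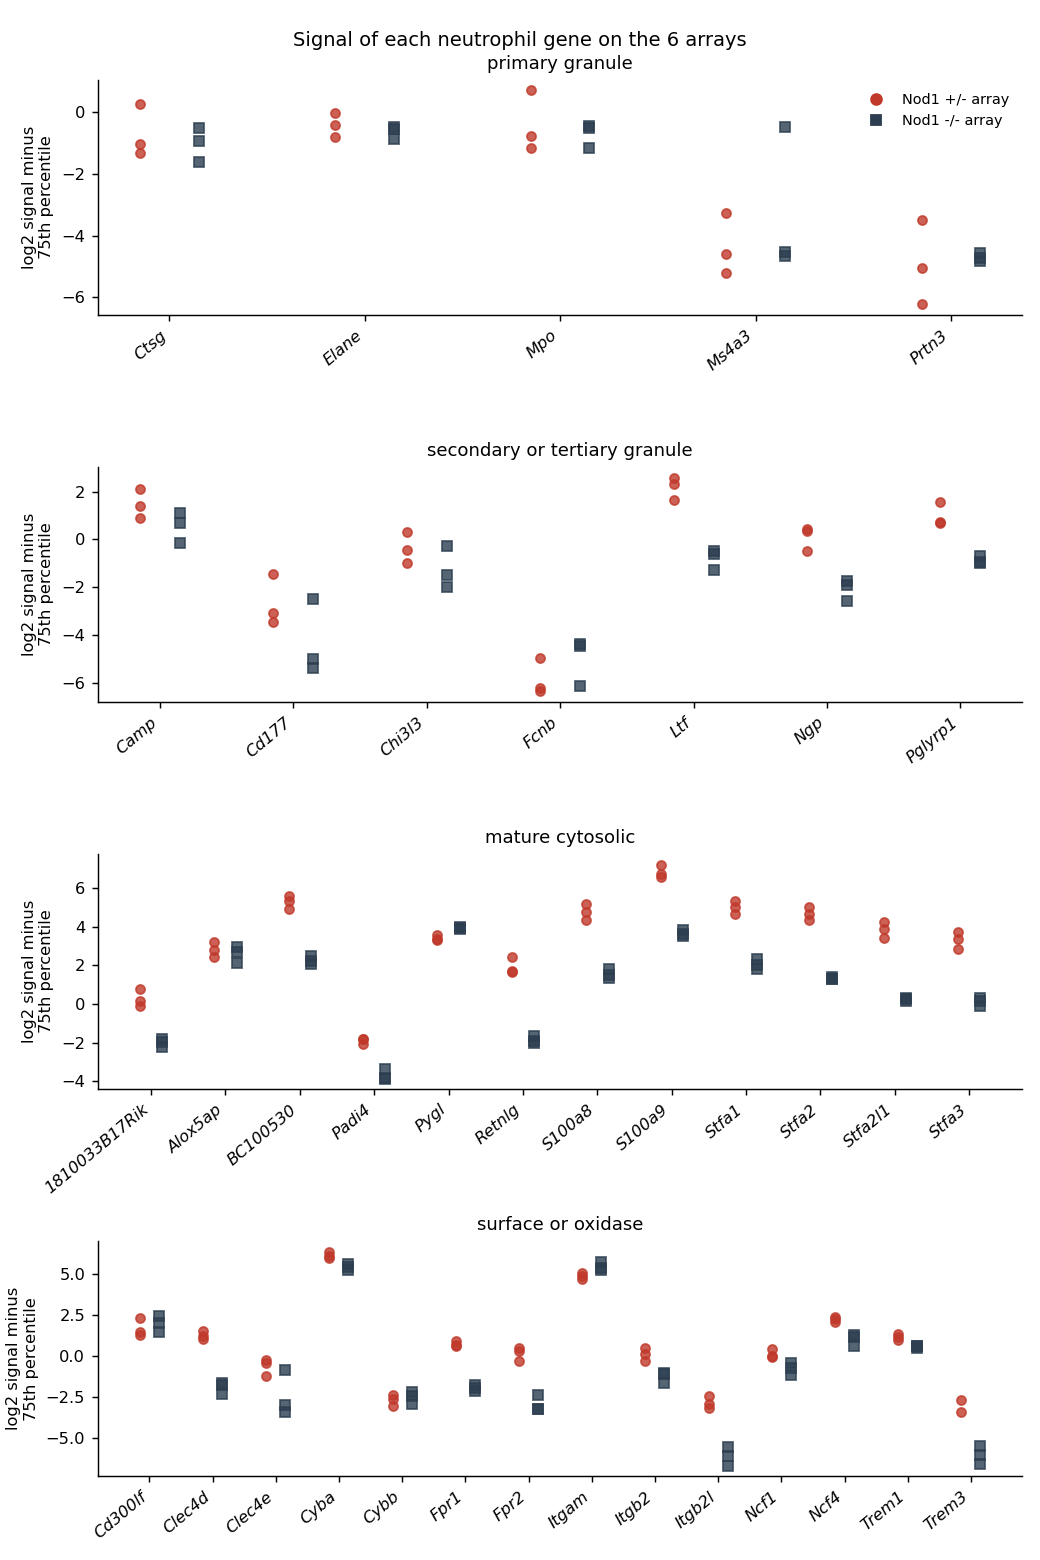
Signal of each of the 38 genes on the 6 arrays (log2 signal minus the array's 75th percentile, vertical axis), in 4 panels by class, with Nod1 +/- arrays as red circles and Nod1 -/- arrays as dark squares. The groups are interleaved for Mpo, Elane and Ctsg and do not overlap for S100a8, S100a9, Retnlg or the stefin genes; Trem3 lacks 1 spot.

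The mature cytosolic class had the highest median difference of the 4. S100a8 and S100a9 encode the subunits of calprotectin, the abundant calcium- and zinc-binding protein of neutrophil cytosol, and are neighbours on chromosome 3. S100a8 (90473778 to 90473837) read 4.77, 5.19 and 4.34 in Nod1 +/- and 1.36, 1.81 and 1.50 in Nod1 -/-, and rose 9.27-fold (log2 3.21, standard error 0.24; adjusted p = 0.00128). S100a9 (90496573 to 90496632) read 6.76, 7.23 and 6.57 in Nod1 +/- and 3.54, 3.85 and 3.65 in Nod1 -/-, and rose 9.03-fold (log2 3.17, standard error 0.19; adjusted p = 0.000822). The lowest Nod1 +/- array was over 2.5 log2 units above the highest Nod1 -/- array for both. Retnlg, a resistin-like secreted protein of neutrophils (chromosome 16, 48874468 to 48874527), read 1.70, 2.46 and 1.67 in Nod1 +/- and -1.68, -1.90 and -2.04 in Nod1 -/-, and rose 14.1-fold (log2 3.82, standard error 0.24; adjusted p = 0.000882), the widest difference among the 34 genes tested.

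The stefin genes form a cluster on chromosome 16 and encode inhibitors of cysteine proteases such as cathepsins. Stfa1 (36285398 to 36285457) read 5.05, 5.36 and 4.68 in Nod1 +/- and 1.84, 2.32 and 2.01 in Nod1 -/-, and rose 7.85-fold (log2 2.97, standard error 0.21; adjusted p = 0.00115). Stfa2 (36404032 to 36404089) read 4.66, 5.04 and 4.35 in Nod1 +/- and 1.31, 1.39 and 1.31 in Nod1 -/-, and rose 10.2-fold (log2 3.35, standard error 0.18; adjusted p = 0.000611). The Nod1 -/- arrays were tightly grouped here, with a standard deviation of 0.05 for Stfa2 against 0.35 in Nod1 +/-. Stfa2l1 (36160118 to 36161876, across a splice junction) read 3.88, 4.28 and 3.43 in Nod1 +/- and 0.32, 0.26 and 0.14 in Nod1 -/-, and rose 12.3-fold (log2 3.62, standard error 0.22; adjusted p = 0.000814). Stfa3 (36450693 to 36450752) read 3.40, 3.72 and 2.87 in Nod1 +/- and -0.08, 0.31 and 0.14 in Nod1 -/-, and rose 9.23-fold (log2 3.21, standard error 0.23; adjusted p = 0.00122). BC100530, now called Cstdc5 in RefSeq (36359525 to 36359584), read 5.32, 5.62 and 4.91 in Nod1 +/- and 2.05, 2.50 and 2.22 in Nod1 -/-, and rose 8.13-fold (log2 3.02, standard error 0.21; adjusted p = 0.00113). In all 5 stefin genes Nod1 +/- replicate 2 was the highest array and replicate 3 the lowest of the Nod1 +/- arrays.

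Of the 10 pairs among the 5 stefin probes, those of Stfa3 and BC100530 were the most alike in sequence. The best-matching 30-base stretches of the Stfa3 and BC100530 probes are shown, with identical bases in capitals, and 27 of the 30 are identical.
Stfa3, probe bases 20 to 49: ACTaACAAAACCAAGacTGATGAGCTGACC
BC100530, probe bases 1 to 30: ACTgACAAAACCAAGgaTGATGAGCTGACC
Over their full overlap these probes matched at 35 of 41 bases (85.4%), and the Stfa1 and Stfa2 probes at 40 of 58 (69.0%). The other 8 pairs matched at 38.9% to 48.6% of bases. The Stfa2l1 probe shared an exact run of 26 bases with a probe named after an Ensembl transcript. The BC100530 probe shared 25 bases with a probe of 2010005H15Rik, the Stfa3 probe 22 with one of Gm5483 and the Stfa1 probe 15 with one of Sp2. No pair of the 5 shared an exact run of 15 bases. Reading of a paralogue by these probes was not tested.

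The other 4 genes of the class gave 2 smaller rises, 1 fall and 1 gene without a call. 1810033B17Rik, now called Mcemp1 (chromosome 8, 3668713 to 3668772), read 0.14, 0.79 and -0.09 in Nod1 +/- and -2.25, -1.79 and -1.98 in Nod1 -/-, and rose 4.88-fold (log2 2.29, standard error 0.25; adjusted p = 0.00367). Padi4, the enzyme that citrullinates histones during the release of neutrophil extracellular traps (chromosome 4, 140301675 to 140301734), read -2.08, -1.80 and -1.81 in Nod1 +/- and -3.86, -3.85 and -3.35 in Nod1 -/-, and rose 3.45-fold (log2 1.79, standard error 0.18; adjusted p = 0.00263). Neither gene's groups overlapped. A second Padi4 probe was too dim to be tested.

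Alox5ap and Pygl, which many other cell types also express, did not follow. Alox5ap, the membrane protein that presents arachidonic acid to 5-lipoxygenase (chromosome 5, 150099347 to 150099406), read 2.81, 3.23 and 2.44 in Nod1 +/- and 2.98, 2.69 and 2.13 in Nod1 -/-, with a difference of 0.23 (95% interval -0.46 to 0.92; adjusted p = 0.598). Pygl, glycogen phosphorylase of the liver type (chromosome 12, 71291855 to 71291914), read 3.33, 3.57 and 3.38 in Nod1 +/- and 3.97, 3.98 and 3.87 in Nod1 -/-, and fell by 0.51 (standard error 0.10; adjusted p = 0.0231). It was the only one of the 34 genes called lower in the fit used here. The Pygl call was lost with median scaling (adjusted p = 0.146), when dim probes were kept in (0.0822), with a block for the slide row (0.167) and without both first replicates (0.218). Leaving out Nod1 +/- replicate 1 (0.0798), Nod1 +/- replicate 3 (0.051), Nod1 -/- replicate 1 (0.0822) or Nod1 -/- replicate 2 (0.0865) also ended it. Alox5ap was not called in any of the settings tried.

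Several surface receptors with which neutrophils sense microbes were called higher. Fpr1, the receptor for formylated bacterial peptides (chromosome 17, 18013609 to 18013668), read 0.64, 0.90 and 0.62 in Nod1 +/- and -1.98, -1.75 and -2.15 in Nod1 -/-, and rose 6.41-fold (log2 2.68, standard error 0.14; adjusted p = 0.000564). Its relative and neighbour Fpr2 (18030540 to 18030599), which also binds serum amyloid A and annexin peptides, read 0.28, 0.46 and -0.30 in Nod1 +/- and -2.39, -3.23 and -3.22 in Nod1 -/-, and rose 8.54-fold (log2 3.09, standard error 0.30; adjusted p = 0.00261). Neither gene's groups overlapped.

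Clec4d and Clec4e encode paired C-type lectins for mycobacterial glycolipids and lie side by side on chromosome 6. Clec4d (123224788 to 123224847) read 1.23, 1.50 and 1.06 in Nod1 +/- and -1.79, -1.66 and -2.33 in Nod1 -/-, and rose 9.12-fold (log2 3.19, standard error 0.21; adjusted p = 0.00105). Clec4e (123232878 to 123232937) read -0.44, -0.24 and -1.22 in Nod1 +/- and -3.01, -3.44 and -0.85 in Nod1 -/-, with a difference of 1.80 (95% interval 0.12 to 3.48; adjusted p = 0.122). Nod1 -/- replicate 3 alone stood apart for Clec4e, above the lowest Nod1 +/- array. Without it Clec4e was called, with a difference of 2.59 (adjusted p = 0.015), and against it alone the difference was 0.21.

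Integrin genes gave unequal readings. Itgb2, the beta-2 chain (CD18) shared by leukocyte integrins (chromosome 10, 77027978 to 77028037), read 0.10, 0.45 and -0.34 in Nod1 +/- and -1.07, -1.11 and -1.63 in Nod1 -/-, and rose 2.53-fold (log2 1.34, standard error 0.25; adjusted p = 0.0177). The Itgb2 call was lost when dim probes were kept in (adjusted p = 0.0532), with a block for the slide row (0.0527), without Nod1 +/- replicate 1 (0.0549), without Nod1 -/- replicate 2 (0.0582) and without both first replicates (0.112), although the difference stayed between 1.05 and 1.70. Itgb2l, a related beta chain of neutrophils (chromosome 16, 96643947 to 96644006), read -2.95, -2.42 and -3.20 in Nod1 +/- and -6.71, -5.54 and -6.10 in Nod1 -/-. No Nod1 -/- array read it well above background, so it passed the filter through the Nod1 +/- arrays alone and had to differ. It was at least 3.10-fold higher in Nod1 +/- (limma's adjusted p = 0.00304). For this bound each Nod1 -/- array was set at its lowest signal well above background, or at the signal of Itgb2l where that was higher. The other 2 Itgb2l probes were above background on no array.

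Itgam, the alpha chain of the CD11b/CD18 integrin, was read by 3 probes that differed in sign. The brightest (chromosome 7, 135261755 to 135261814), used for the gene by rule, read 4.88, 4.70 and 5.08 in Nod1 +/- and 5.38, 5.22 and 5.74 in Nod1 -/-, with a difference of -0.56 (95% interval -0.98 to -0.14; adjusted p = 0.0739). The second (135260275 to 135260334) read -0.86, -0.67 and -1.40 in Nod1 +/- and -3.12, -3.44 and -3.12 in Nod1 -/- and gave 2.25 (limma's p adjusted across kept probes = 0.00287). The third (135212140 to 135212199) read -3.57, -3.54 and -3.95 in Nod1 +/- and -4.22, -5.12 and -5.04 in Nod1 -/- and gave 1.11 (0.0405). The genotypes separated downward on the first probe, as 26.1% of all genes tested did, and upward on the other two.

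Cd300lf, an inhibitory receptor of myeloid cells on chromosome 11, showed the same split. Its brightest probe (114977796 to 114977855) read 1.48, 1.27 and 2.29 in Nod1 +/- and 1.99, 1.46 and 2.44 in Nod1 -/-, with a difference of -0.29 (95% interval -1.13 to 0.56; adjusted p = 0.59). A probe at 114977540 to 114977599 read 1.86, 2.38 and 2.20 in Nod1 +/- and -2.05, -2.44 and -2.75 in Nod1 -/- and gave 4.56 (p adjusted across kept probes = 0.000463). The overlapping probe at 114977533 to 114977592 read 0.76, 1.36 and 0.96 in Nod1 +/- and -3.38, -3.79 and -3.81 in Nod1 -/- and gave 4.69 (0.000451). On the last pair the lowest Nod1 +/- array lay more than 3.9 log2 units above the highest Nod1 -/- array, a wider separation than any gene above.

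Sequences of 5 probes are printed beside this split, as 30 bases each, with the longest tandem repeat of a unit of 1 to 3 bases in capitals.
Cd300lf, brightest probe, bases 31 to 60: tttaaggaggaAGAGAGAGAGAGAGAGAGt
Cd300lf, probe at 114977540, bases 31 to 60: tttcagaattgtAGAAGAAtaaagttgtat
Itgam, brightest probe, bases 1 to 30: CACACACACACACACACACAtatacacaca
Itgam, probe at 135260275, bases 29 to 58: gggcagctccattGGGGGcctggtgctctt
Trem1, its only probe, bases 20 to 49: GTTGTTGTTGTTGTTGTTGTTGTTGTTGTT
The repeat was 18 bases long in the brightest Cd300lf probe, 20 in the brightest Itgam probe and 39 in the Trem1 probe, against 5 to 8 in the other 46 probes of the 38 genes. A repeat of 15 bases or more occurred in 272 of 55681 probes on the array (0.49%). The brightest Itgam and Cd300lf probes shared an exact run of at least 15 bases with 48 and 12 probes of other genes. Of the 257 kept probes with such a repeat 13.2% were called, against 16.0% of the other kept probes. Whether the repeat sets the reading of these probes was not tested. With repeat-holding probes left out, an alternative chosen after the data had been seen, 23 of 33 neutrophil genes were called higher (Trem1, with no other probe, was not tested), the surface or oxidase median was 2.03, and Cd300lf and Itgam were at 4.56 and 2.25 (adjusted p = 0.000396 and 0.00237).

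**Figure D3:**
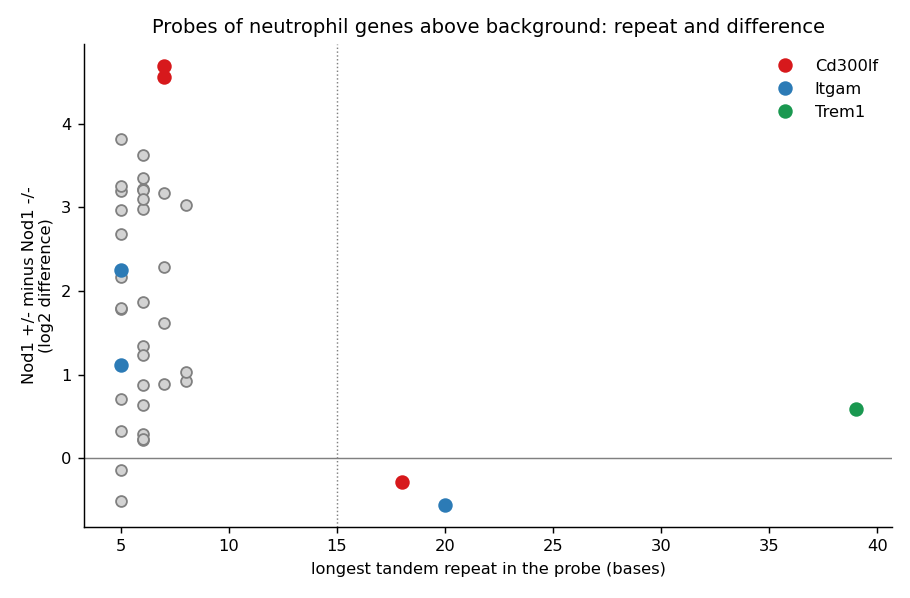
Difference between genotypes (log2, vertical axis) against the longest tandem repeat in the probe (bases, horizontal axis) for the 40 probes of neutrophil genes above background on at least 3 arrays. The dotted line marks 15 bases; the brightest Cd300lf and Itgam probes lie right of it at -0.29 and -0.56, and their other probes lie left of it between 1.11 and 4.69.

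Trem1, an activating receptor that amplifies inflammatory signals in neutrophils and monocytes (chromosome 17, 48385849 to 48385908), read 1.16, 1.31 and 0.99 in Nod1 +/- and 0.63, 0.49 and 0.57 in Nod1 -/-, and rose 1.50-fold (log2 0.59, standard error 0.12; adjusted p = 0.0212). This was the smallest rise of the 22, and the call was lost when dim probes were kept in, with a block for the slide row, without both first replicates or without any single array other than Nod1 +/- replicate 3 (adjusted p between 0.0505 and 0.161). Trem3, its neighbour (48397990 to 48398049), had a spot left out as an outlier on Nod1 +/- replicate 1 and was not tested. Its other values were -2.69 and -3.43 in Nod1 +/- replicates 2 and 3 and -5.52, -6.59 and -6.07 in Nod1 -/-, where no array was well above background.

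The NADPH oxidase makes superoxide from a membrane pair (Cybb and Cyba) and cytosolic subunits (Ncf1 and Ncf4 among them). Ncf4, the p40-phox subunit (chromosome 15, 78092903 to 78092962), read 2.06, 2.28 and 2.37 in Nod1 +/- and 1.25, 1.15 and 0.61 in Nod1 -/-, and rose 2.36-fold (log2 1.24, standard error 0.19; adjusted p = 0.0106). Ncf1, the p47-phox subunit (chromosome 5, 134696380 to 134696439), read -0.01, 0.39 and -0.07 in Nod1 +/- and -0.42, -0.71 and -1.18 in Nod1 -/-, and rose 1.83-fold (log2 0.87, standard error 0.23; adjusted p = 0.0462). Cyba, the p22-phox chain that is also expressed in vessel walls (chromosome 8, 124948726 to 124948785), read 5.98, 6.11 and 6.36 in Nod1 +/- and 5.63, 5.43 and 5.26 in Nod1 -/-, and rose 1.64-fold (log2 0.71, standard error 0.15; adjusted p = 0.0249). In these 3 genes the groups did not overlap. A second Cyba probe gave 0.64 (limma's p adjusted across kept probes = 0.0733).

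The oxidase calls other than that of Ncf4 were not stable. The Ncf1 call was lost in 11 of 18 settings, among them each array left out in turn other than Nod1 -/- replicate 1 (adjusted p between 0.0672 and 0.124) and the slide row as a block (0.0552). The Cyba call was lost in 8 of 19, among them when Nod1 +/- replicate 2 (0.0674), the second Nod1 -/- array (0.0875) or the third (0.0594) was left out. Ncf4 lost its call only without both first replicates (0.0543). Cybb, the catalytic gp91-phox chain (chromosome X, 9013216 to 9013275), read -2.62, -2.40 and -3.04 in Nod1 +/- and -2.22, -2.46 and -2.94 in Nod1 -/-, with a difference of -0.15 (95% interval -0.73 to 0.44; adjusted p = 0.696), and the genotypes overlapped.

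Genes of the same cell and its surroundings that were not members were read from lists. Of 28 other neutrophil genes 24 were tested, with a median difference of 1.93. By limma 15 were called higher and 0 lower (18 and 0 at an unadjusted p under 0.05), beside 7.66% and 11.0% of all genes tested. Of the 15, Cxcr2, Mmp9, Ceacam10 and Olfm4 were above background on no Nod1 -/- array and passed the filter on dim probes through the Nod1 +/- arrays alone, so these 4 had to differ. Cxcr2, a receptor for CXC chemokines, and Mmp9, the gelatinase of tertiary granules, both named after their values were seen, were at least 12.4-fold and 7.0-fold higher. Ceacam10, an adhesion-type glycoprotein, and Olfm4, a glycoprotein of specific granules, were at least 6.18-fold and 6.11-fold higher in Nod1 +/- (adjusted p = 0.000683 and 0.00072). Lcn2, the siderophore-binding lipocalin of specific granules, read 4.46, 4.81 and 3.93 in Nod1 +/- and 0.95, 1.21 and 0.65 in Nod1 -/-, and rose 11.0-fold (log2 3.46, standard error 0.26; adjusted p = 0.00128).

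A single probe read Csf3r, the receptor for G-CSF, which the list of granulopoiesis factors also holds, and it is named after its values were seen. It read 6.92, 6.48 and 7.23 in Nod1 +/- and 7.28, 7.08 and 7.60 in Nod1 -/- (difference -0.44, adjusted p = 0.218; no call). Bases 31 to 60 of that probe were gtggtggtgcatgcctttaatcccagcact, and the probe shared an exact run of at least 15 bases with 10 probes of other genes and 30 bases with 1 of them. Whether this sets the reading was not tested. Csf3r made up 33.8% to 76.4% of the summed signal of the other neutrophil genes, which was 265 to 314 times the 75th percentile in Nod1 +/- and 211 to 255 in Nod1 -/-. Without it the sums were 144 to 193 and 60.3 to 76.7.

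Of 17 transcription factors, growth factors and other genes of granulopoiesis 15 were tested, with a median difference of 0.26. By limma 6 were called higher and 1 lower, beside 7.66% and 11.0% of all genes tested. Cebpe, encoding C/EBP-epsilon, read -0.91, -0.43 and -0.87 in Nod1 +/- and -3.04, -2.54 and -2.89 in Nod1 -/-, and rose 4.26-fold (log2 2.09, standard error 0.19; adjusted p = 0.00214). Cebpb, linked to emergency granulopoiesis, read 2.40, 2.87 and 2.62 in Nod1 +/- and 1.59, 1.30 and 1.30 in Nod1 -/-, and rose 2.35-fold (log2 1.24, standard error 0.16; adjusted p = 0.00596). Runx1, a regulator of blood stem and progenitor cells, rose 2.70-fold (log2 1.44, standard error 0.22; adjusted p = 0.0104). The gene called lower was Cd34, a marker of progenitors and endothelium named after its values were seen, which fell by 0.56 (adjusted p = 0.015). The G-CSF gene itself (Csf3), also named after its values were seen, was not above background on any array.

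The list of neutrophil recruitment genes also holds receptors and adhesion molecules of leukocytes themselves. Of 18 tested 13 were called higher and 0 lower by limma, beside 7.66% and 11.0% of all genes tested. At an unadjusted limma p under 0.05 the counts were 14 and 0, and the median difference was 2.85. Among the 13 were C5ar1, Ltb4r1 and Itgal, named after their values were seen, with differences of 2.72, 2.92 and 1.15. Selplg, Ptafr and C3ar1, also named after their values were seen, were not called. Of the 13, Sele and the chemokine genes Cxcl2, Cxcl3 and Cxcl5, the last 3 named after their values were seen, were above background on no Nod1 -/- array and passed the filter through the Nod1 +/- arrays alone, so these 4 had to differ. Sele, the endothelial selectin on which leukocytes roll, was at least 26.7-fold higher (adjusted p = 0.000243). Icam1, the endothelial ligand of beta-2 integrins, rose 16.4-fold (log2 4.04, standard error 0.14; adjusted p = 0.000243). Selp, P-selectin, rose 28.2-fold (log2 4.82, standard error 0.21; adjusted p = 0.000382).

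Markers of other cells that the dissected vessel could hold were read in the same way. Of 19 macrophage and monocyte genes 2 were called higher and 3 lower, beside 7.66% and 11.0% of all genes tested, with a median of -0.11. Their summed signal was 126 to 152 times the 75th percentile in Nod1 +/- and 103 to 190 in Nod1 -/-. The brightest gene, Ly6c1, named after its values were seen, made up 21.4% to 36.5% of it. Without Ly6c1 the sums were 80.4 to 96.8 in Nod1 +/- and 81.2 to 148 in Nod1 -/-. Marco, a scavenger receptor named after its values were seen, rose 5.46-fold (log2 2.45, standard error 0.55; adjusted p = 0.0307). Csf1r, the macrophage growth factor receptor, fell by 0.96 (adjusted p = 0.0295) and Cx3cr1, the fractalkine receptor, fell by 2.05 (0.00446). Lyve1, a hyaluronan receptor of vessel-associated macrophages and lymphatics, fell by 1.03 (0.0203), whereas Cd14, the endotoxin co-receptor, rose 3.49-fold (log2 1.81, standard error 0.22; adjusted p = 0.00512). Cd68, a lysosomal marker of macrophages, differed by 0.13 (adjusted p = 0.664). Csf1r and Cd68 were well above background on all 6 arrays, and the part of other cells in the neutrophil differences was not tested.

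Blood content was measured by red-cell and platelet genes, beside 7.66% called higher and 11.0% lower over all genes tested. Of 9 tested red-cell genes 0 were called by limma (3 lower at an unadjusted p under 0.05), with a median of -0.50 and a summed signal of 1520 to 1800 in Nod1 +/- and 1830 to 1980 in Nod1 -/-. The alpha-globin genes Hba-a1 and Hba-a2 differed by -0.26 and 0.01 (adjusted p = 0.142 and 0.944). Alas2, the other defining red-cell gene, differed by -0.67 (limma's adjusted p = 0.147). Of 10 platelet genes 1 was called higher and 3 lower (1 and 6 at an unadjusted limma p under 0.05), with a median difference of -0.84. Their summed signal was 96.6 to 110.3 in Nod1 +/- and 80.6 to 106.1 in Nod1 -/-, of which the platelet factor gene Pf4 made up 68.3% to 82.7%, and without Pf4 it was 22.2 to 24.4 and 18.4 to 25.6. Ppbp, a platelet chemokine precursor, rose 5.30-fold (log2 2.41, standard error 0.24; adjusted p = 0.00263), while the platelet receptor chain Gp1ba fell by 1.94 (adjusted p = 0.00678) and the platelet receptor Treml1 by 1.38 (0.0128). The third platelet gene called lower was Gp9, a partner of Gp1ba named after its values were seen, which fell by 1.39 (0.0134). The platelet marker Itga2b differed by -0.87 and was not called (limma's adjusted p = 0.069).

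Genes of other granulocytes and lymphocytes are set beside the shares over all genes tested, 7.66% called higher and 11.0% lower. With 12 and 9 genes tested, 1 call in a list is near these shares. The summed signal of eosinophil, mast cell and basophil genes was 48.5 to 57.1 in Nod1 +/- and 36.8 to 70.5 in Nod1 -/-, and that of lymphocyte genes 4.98 to 5.12 and 5.27 to 7.34. Of 12 tested eosinophil, mast cell and basophil genes 1 was called, Siglec5, the array's name for the eosinophil lectin Siglec-F, which rose 2.10-fold (log2 1.07, standard error 0.15; adjusted p = 0.00818). The mast cell proteases Cpa3 and Cma1 differed by -0.10 and -0.19 (adjusted p = 0.837 and 0.694) and the eosinophil granule gene Prg2 by 1.51 (0.2). The eosinophil peroxidase Epx was not above background on any array. Of 9 lymphocyte genes Cd79b, a chain of the B-cell receptor, was called lower by 1.09 (adjusted p = 0.0488). The lymphocyte markers Cd3e and Cd79a differed by -0.13 and -0.11 (limma's adjusted p = 0.717 and 0.848). Of 16 vessel-wall genes 1 was called higher and 1 lower, with a median difference of -0.06. Their summed signal was 1350 to 1520 in Nod1 +/- and 1390 to 1580 in Nod1 -/-. Tek fell by 1.92 and Des rose by 1.15 (limma's adjusted p = 0.00206 and 0.0335). The endothelial markers Pecam1 and Cdh5 differed by -0.26 and 0.30 (0.436 and 0.0766), and the smooth muscle gene Myh11 by 0.22 (0.322). By limma 0 of 9 skeletal-muscle genes were called (0 at an unadjusted p under 0.05). Myl1, Acta1 and Ckm differed by 0.78, 0.90 and 0.91 (adjusted p = 0.513, 0.471 and 0.407). Without Nod1 +/- replicate 1, the array rich in skeletal-muscle signal, 19 neutrophil genes were called higher, all of them among the 22.

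**Figure D4:**
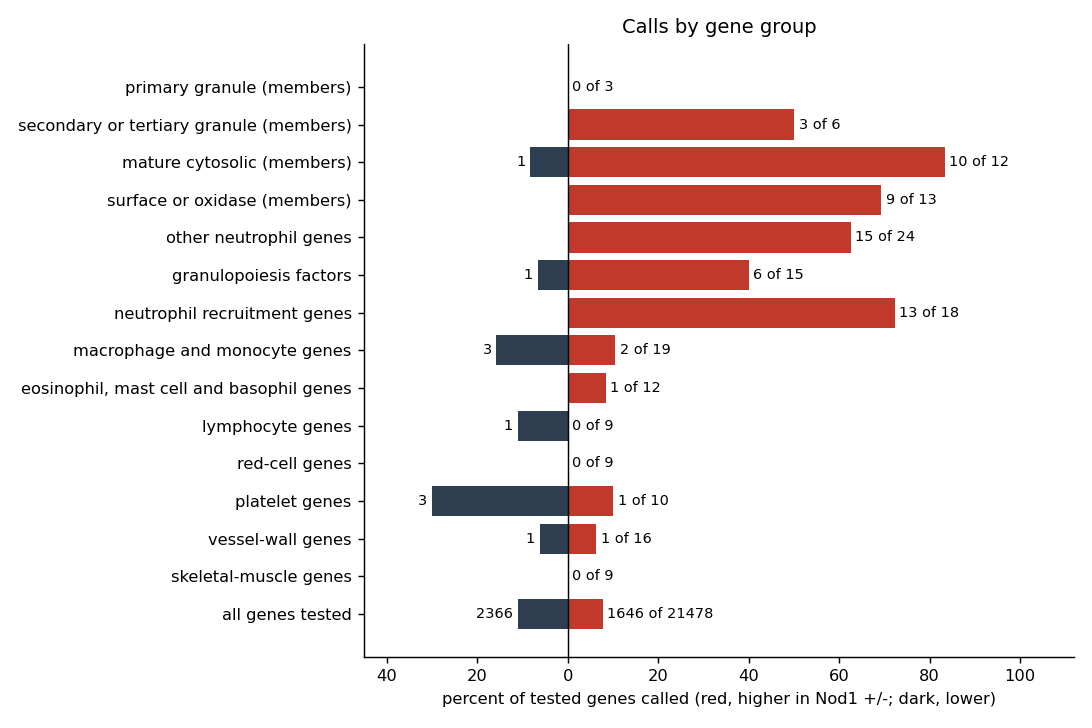
Percent of tested genes called higher (red, to the right) or lower (dark, to the left) in Nod1 +/- vessels, for the 4 neutrophil classes, 10 other gene lists and all genes tested, with the counts printed. The mature cytosolic class had 10 of 12 genes called higher and the red-cell list 0 of 9, beside 1646 of 21478 for all genes.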

How the data were processed

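Scanner files of 6 arrays, 3 for each genotype, were used; genotypes came from the labels. The deposited values are intensities, from which the authors' software had subtracted background (Agilent Feature Extraction; version 10.7.1.1 in the file headers, but 9.5.1.1 in the submitters' processing notes). Probe positions are mm9, per the file headers. Control and outlier spots were left out, and 0 spots were saturated. The log2 of each deposited signal was taken relative to the array's 75th percentile, and spots of a probe were averaged. Probes well above background on at least 3 of 6 arrays were kept (30166 of 55681), and a gene took its kept probe with the highest mean. limma 3.58.1 in R 4.3.3 tested Nod1 +/- minus Nod1 -/- (lmFit, eBayes), with Benjamini-Hochberg adjustment over 21478 genes and a threshold of 0.05. The procedure was run on simulated data with independent arrays and few changed genes. Those data held no slide rows and no array that stood apart, so the run does not cover these. The authors' deposited value table, whose scaling step is not stated, served as an alternative. The number of arrays limits the precision. Members and lists were chosen with earlier results of these data known. Named genes were all members and, per list, up to 3 called genes with the smallest p, or the 2 brightest tested genes where none was called, and the defining markers of other cell types; others are said to be chosen after their values were seen. Alternatives changed background, scaling, filter, probe choice, blocks and arrays.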

Additional observations from a re-analysis of the deposited data

How the results depend on the processing

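The count of neutrophil genes called higher (22) lay between 15 and 24 over the settings tried, and 15 of the 22 kept their call in every one. Itgb2l, which had to differ, is among these 15. Settings that moved other counts or class medians were as follows, with the cause not tested. Calls over all genes (4012) numbered 3990 without repeat-holding probes, and fell to 2506 with median scaling, 1636 when dim probes were kept in, 1033 with a block for the slide row, 641 without both first replicates and 1203 when a 2-fold change was required, and ranged from 1459 to 3387 with 1 array left out. The count called lower (1) was 0 with median scaling, no filter, the slide row block, without both first replicates and at 2-fold, 2 with normexp, the replicate block and an intensity trend with robust prior, and 0 to 1 with 1 array left out. With normexp the secondary or tertiary median was 1.21 and the surface or oxidase median 0.81. The surface or oxidase median was 1.41 without both first replicates and 2.03 without repeat-holding probes. With 1 array left out the primary granule median ranged from -0.15 to 0.63, the secondary or tertiary median from 1.30 to 2.03 and the surface or oxidase median from 1.04 to 1.36. Cd300lf reversed to 2.99 with the mean of a gene's probes, to 4.69 and 4.56 on its other probes and to 4.56 without repeat-holding probes, and with 1 array left out stayed between -0.59 and -0.05. Itgam reversed to 0.93, to 1.11 and 2.25, and to 2.25 in the same settings, and with 1 array left out stayed between -0.67 and -0.41. Itgam was called lower with normexp (limma's adjusted p = 0.0316), the replicate block (0.0323) and the trend with robust prior (0.0379). Replicate numbers were not taken to pair the arrays. Same-number correlations of deviations were 0.08, 0.28 and 0.11, and different-number ones ran from -0.31 to 0.13. Whether the numbers pair littermates was not tested. With the replicate number as a block 20 neutrophil genes were called higher and 2 lower, of 4040 genes called in all; the calls of Cyba and Ncf1 were lost (adjusted p = 0.0654 and 0.0511). Median scaling moved the median difference of all genes from -0.10 to 0.01.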
